A study of Mus musculus with 31 samples.

Results

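The RING finger genes of the Rnf family were followed through 31 single 2-cell mouse embryos. They were taken from the count table as every row whose symbol is Rnf followed by a number, without Rnf2, Rnf8 and Rnf168. Of the 85 such rows 3 were left out, so that 82 members remained of 20544 rows in all. RNA-seq had been made from 16 control- and 15 SER-generated embryos by Smart-seq3, a full-length protocol whose 5′ reads, unlike its internal ones, carry a molecular identifier. SER, sperm energy restriction and recovery, withholds energy substrates from sperm and then gives them back before in vitro fertilization. Both groups were wild type, with sperm of C57BL/6J males aged 12 to 14 weeks and oocytes of CD1 females aged 8 to 10 weeks, and every embryo was collected at 32 h after insemination. The comparison asked whether the treatment of the sperm changed the transcripts of the 2-cell embryo. Each library holds a whole 2-cell embryo, so its cells are not read singly, and a level is a share of the counts of that embryo.

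Ubiquitin is passed from an activating enzyme (E1) to a conjugating enzyme (E2) and then to a substrate, and a RING ligase (E3) holds the loaded E2 beside that substrate. The RING itself is a fold in which cysteines and histidines bind zinc. Members of the family mark histones, sumoylated proteins, misfolded membrane proteins, stalled ribosomes and signalling receptors. In the mouse 2-cell embryo maternal proteins and transcripts are removed while the zygotic genome is switched on, and ubiquitin ligases take part in that clearance. The Rnf name is given for the fold and not for a common function, so the members are described here by their roles.

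The proteins translated from the GENCODE transcripts of the members were searched for the spacing of cysteines and histidines that defines a RING. A C3HC4 spacing was found in 49 and a C3H2C3 spacing in 29 of the 82 members, and none held both. Together these are 95.1% of the members, against 0.984% of the 19403 other genes translated. The 4 members with neither spacing were Rnf41, Rnf144a, Rnf144b and Rnf216. The longest translated product of a member ran from 113 to 5152 residues.

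Library totals had a median of 955806.5 counts in the control group (532945 to 2085222) and of 1375557 in the SER group (642321 to 3088396). A zygotic score was computed for each embryo as the mean log2 CPM (counts scaled to the same library total) of 22 genes of the 2-cell burst, such as Zscan4 and Zfp352, minus that of 23 oocyte transcripts, such as Zp3 and Gdf9. In 29 embryos the score lay between -3.77 and -1.16. Control replicate 4 was at -6.42 and SER replicate 15 at -5.80, both low in zygotic and high in oocyte transcripts, and a clustering of the 1000 most variable genes put these 2 embryos in a cluster of their own. Of the 18 zygotic genes tested 14 had estimates above 0 for SER against control, and of the 21 oocyte transcripts tested 15 had estimates below 0. None of either list was past the threshold used below. By edgeR 4 of the 21 oocyte transcripts, all lower, and 0 zygotic genes had an unadjusted p under 0.05, beside 5.73% over all tested genes. All 11 listed cumulus cell markers had a count in some embryo, and their summed CPM ran from 0 to 1578 in control-generated embryos, where control replicate 5 was the highest, and from 2.33 to 19.6 in SER-generated embryos. The 7 listed sperm transcripts summed to no more than 24.1 CPM in the control group and 30.9 CPM in the SER group. The part of these differences in the values below was not tested. Without control replicate 5 the 4 members that had an unadjusted p under 0.05 with all embryos had one again, and no log2 fold change of a named member moved by more than 0.15, the largest move being that of Rnf43. Without control replicate 4 or SER replicate 15 several estimates moved further, as given for Rnf5, Rnf24, Rnf34, Rnf114 and Rnf185.

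Of the 82 members, 2 had no count in any embryo. These were Rnf133 and Rnf148, a pair known from the testis. A total of 40 members had a count in every embryo. The low-count filter of edgeR kept 49 members for testing, and among the 33 others 18 had a median of 0. The highest median CPM among members that were not tested was 7.77, in Rnf225. Rnf212 and Rnf212b, which act in meiotic crossing over, had a count in 14 and 13 embryos and were not tested. The members together took 5241 to 8733 CPM in control-generated embryos (median 7152) and 6089 to 10366 CPM in SER-generated embryos (median 7030). The groups overlapped over most of this range, and the 3 highest sums were those of SER replicates 12, 14 and 15, which are among the 5 deepest SER libraries.

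Levels of different genes are compared as the median CPM over 31 embryos per kb of exon. The highest level was that of Rnf114, a C2HC zinc finger ligase with a ubiquitin-interacting motif, at 109 CPM per kb, which ranked 355 among the 8471 tested genes with a length. Rnf187, a coactivator of c-Jun, followed at 105, Rnf185, a ligase of endoplasmic reticulum-associated degradation, at 96.3, Rnf125, which restrains RIG-I signalling, at 90.5, Rnf4, which recognizes sumoylated proteins, at 90.5, and Rnf126, a partner of BAG6 in protein quality control, at 69.4 CPM per kb. The embryos of neighbours in this order overlapped. The 10 members with the highest median CPM held 53.9% of the sum of the members' median CPM. At the low end of the tested members were Rnf169, a reader of damaged chromatin, at 1.20 CPM per kb and Rnf165, a relative of Rnf111, at 0.920 CPM per kb.

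**Figure D1:**
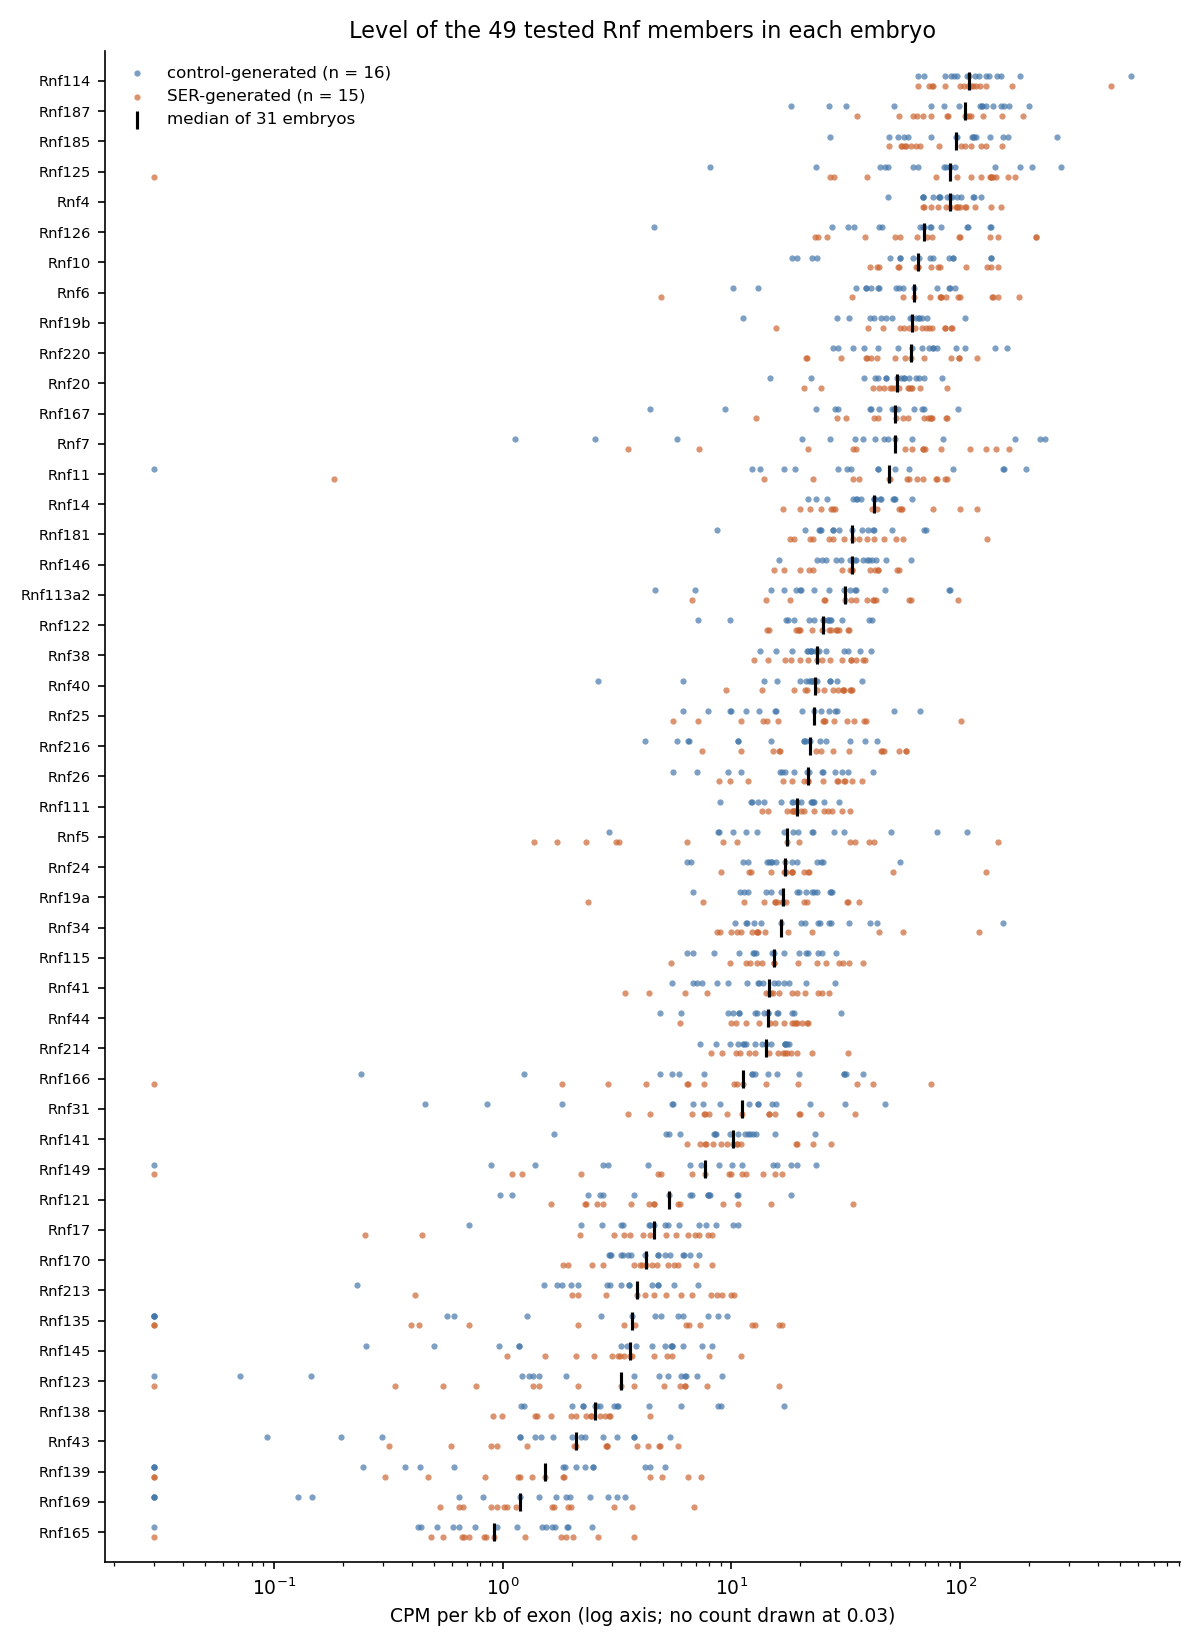
CPM per kb of exon (log axis) of the 49 tested members in each of 16 control-generated (blue) and 15 SER-generated (orange) embryos, with the median of all 31 embryos as a black bar and embryos without a count drawn at 0.03. Rnf114 stands highest with 1 embryo of each group far to its right. Rnf7, Rnf11 and Rnf123 are spread most widely over all 31 embryos, and for Rnf11 control replicate 4 and SER replicate 15 lie far below the others.

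Related members were set side by side on the same scale of CPM per kb. Rnf20 and Rnf40, which together ubiquitinate histone H2B, had medians of 53.0 and 23.2 CPM per kb, and Rnf20 was the higher in 30 of 31 embryos. Rnf185 was higher than Rnf5, its relative in the same degradation pathway, in all 31 embryos, with medians of 96.3 and 17.4 CPM per kb. Rnf126 was higher than Rnf115 in 30 embryos, at 69.4 and 15.3 CPM per kb. The order was the same in both groups for each of these pairs, as the median log2 ratio was above 0 in control- and in SER-generated embryos. Among the RING-between-RING ligases, Rnf19b was higher than Rnf19a in 30 embryos (61.3 and 16.7 CPM per kb). Rnf111, known as Arkadia and a ligase of TGF-β signalling, was higher than Rnf165 in 31 embryos (19.3 and 0.920 CPM per kb). Rnf113a2 is related to the splicing factor Rnf113a1, and both are single-exon genes. It had a median of 31.5 CPM per kb while that of Rnf113a1 was 0. Rnf138 was higher than its retrocopy Rnf138rt1 in 28 embryos. How reads were divided within these last 2 pairs is uncertain, because the sequences of such related genes are alike.

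The groups were compared over 8571 genes by the quasi-likelihood test of edgeR. With Benjamini-Hochberg adjustment over all of them, 0 of the 49 tested members had an adjusted p under 0.1, and the share over all tested genes was 0.0%. The smallest adjusted p of a member was 0.465. An unadjusted p under 0.05 was found for 4 members, which is 8.16% of those tested beside 5.73% over all tested genes, so the count stood close to the background. Estimates were higher in SER-generated embryos for 32 and lower for 17 members, with a median log2 fold change of 0.15 beside 0.02 over all tested genes. For 43 members the estimate was within 0.5 of 0 on the log2 scale. Without the 5 deepest SER libraries the median of the members was -0.07 and 19 were higher, and without both embryos that stand apart it was 0.09 and 30 were higher. The number of calls depended on the test. DESeq2 gave 0 members beside 0.677% of the 7241 genes with an adjusted p, and limma voom with sample quality weights gave 6 members, 12.2% of those tested beside 9.89% over all tested genes. By voom Rnf6, Rnf7 and Rnf213 were higher and Rnf34, Rnf185 and Rnf220 lower in SER-generated embryos.

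**Figure D2:**
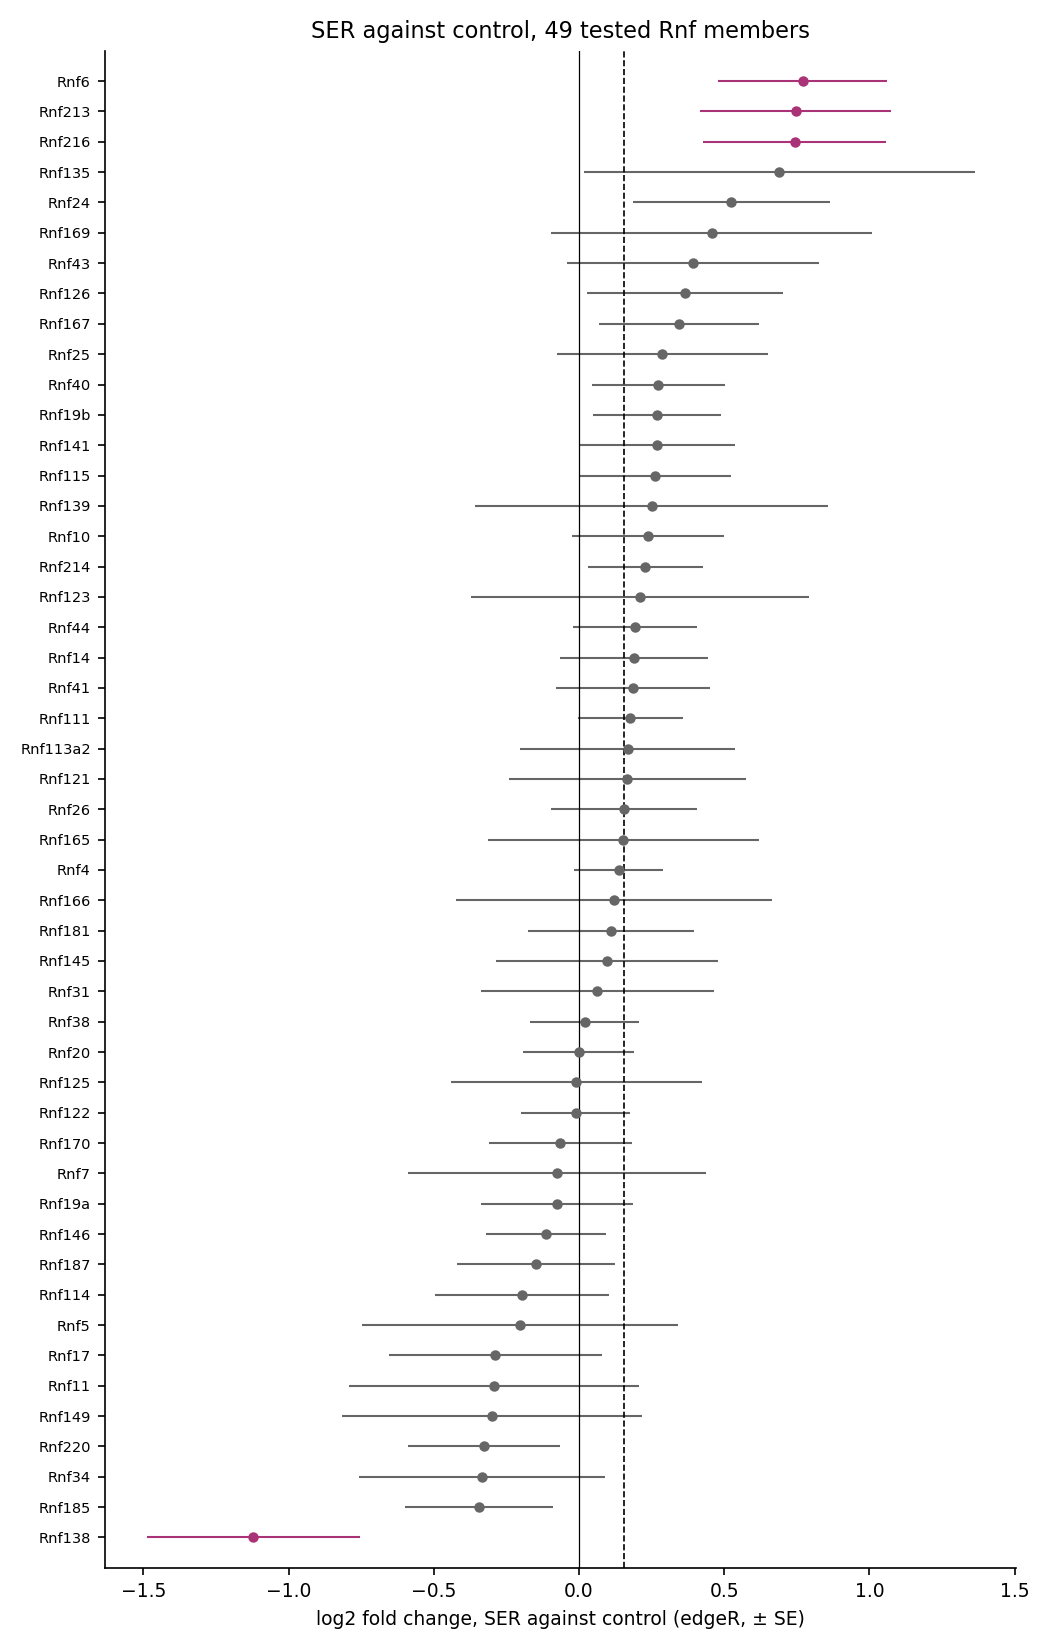
Log2 fold change of SER- against control-generated embryos for the 49 tested members (points, edgeR) with the standard error as bars, the members with an unadjusted p under 0.05 in purple, 0 as a solid line and the median of 0.15 as a dashed line. Rnf138 lies at the low end at -1.12 and Rnf6 at the high end at 0.77.

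The nuclear ligases of histones, SUMO and DNA repair had 16 members, of which 13 were tested, 9 with a higher and 4 with a lower estimate and 1 with an unadjusted p under 0.05. That member was Rnf6, a ligase known from the androgen receptor and related to Rlim, on chromosome 5 (GRCm38, 146209192 to 146221555, minus strand). Its level ran from 40.7 to 383 CPM in control-generated embryos (median 194) and from 19.9 to 724 CPM in SER-generated embryos (median 332). In 6 SER-generated embryos it was above every control-generated embryo, 13 of 15 lay above the control median, and the groups overlapped below that. The log2 fold change was 0.77 (SE 0.29, adjusted p = 0.730 by edgeR, 0.378 by DESeq2 and 0.0259 by voom), and 0.78 (SE 0.23, adjusted p = 0.285 by edgeR) without both embryos that stand apart. In the fits that left out 1 embryo each it stayed between 0.67 and 0.86, and with the zygotic score as a covariate it was 0.40 (unadjusted p = 0.0820, adjusted p = 0.620 by edgeR).

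Rnf4 was among the steadiest of the named members. It ran from 353 to 899 CPM in control-generated embryos (median 616) and from 503 to 1099 CPM in SER-generated embryos (median 703), with a log2 fold change of 0.14 (SE 0.15). Over the 29 embryos without the 2 that stand apart, its log2 CPM had r = 0.68 with the log2 library total. With the library total as a covariate the log2 fold change of Rnf4 was -0.047, and the part of depth was not tested. Rnf20 had medians of 393 and 379 CPM in control- and SER-generated embryos and a log2 fold change of -0.0012 (SE 0.19), and Rnf40 had medians of 126 and 156 CPM and 0.27 (SE 0.23). For Rnf111 the medians were 168 and 179 CPM and the log2 fold change 0.18 (SE 0.18). Rnf146, which recognizes proteins marked with poly(ADP-ribose) and acts with tankyrase on axin, had medians of 156 and 149 CPM and a log2 fold change of -0.11 (SE 0.21). Of its exon bases 70.2% are shared with Echdc1 on the other strand, so reads of both genes may not be told apart if strand was not used in counting. Rnf187 had medians of 240 and 172 CPM and a log2 fold change of -0.15 (SE 0.27), while Rnf220, a ligase that also stabilizes β-catenin, had medians of 583 and 428 CPM and -0.33 (SE 0.26). None of these differences exceeded the spread between embryos in the edgeR test.

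The ligases of the endoplasmic reticulum and other membranes had 15 members. Of these 9 were tested, 5 with a higher and 4 with a lower estimate, and none had an unadjusted p under 0.05. Rnf185 ran from 78.6 to 770 CPM in control-generated embryos (median 304) and from 142 to 444 CPM in SER-generated embryos (median 193), and 10 of the 15 in the SER group lay below the control median. The log2 fold change stood at -0.34 (SE 0.25, adjusted p = 0.935 by edgeR and 0.0597 by voom). It was -0.15 without control replicate 4, which held the highest level, -0.44 without SER replicate 15 and -0.26 without both. Rnf5 had medians of 28.2 and 15.6 CPM with a log2 fold change of -0.20 (SE 0.54), which became -0.78 (SE 0.50) without both embryos that stand apart. SER replicate 15 held the highest level of Rnf5, at 217 CPM. The estimate of Rnf24 rested on both embryos that stand apart. It was 0.52 (SE 0.34) over all embryos, 0.02 without SER replicate 15, in which Rnf24 stood at 881 CPM beside a SER median of 125 CPM, 0.76 (SE 0.31, adjusted p = 0.768 by edgeR) without control replicate 4 and 0.26 (SE 0.23) without both.

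The cytosolic ligases had 10 members, all of them tested, 7 with a higher and 3 with a lower estimate and 1 with an unadjusted p under 0.05. This was Rnf213, a giant ATPase with a RING. It ran from 3.90 to 121 CPM in control-generated embryos (median 52.8) and from 7.01 to 174 CPM in SER-generated embryos (median 87.6). In 5 SER-generated embryos it was above every control-generated embryo and 11 of 15 lay above the control median. The log2 fold change was 0.75 (SE 0.33, adjusted p = 0.809 by edgeR and 0.0857 by voom). Rnf126 had medians of 118 and 121 CPM and a log2 fold change of 0.37 (SE 0.34), and without the 5 deepest SER libraries it was -0.41.

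Rnf7, Rnf11 and Rnf123 varied widely from embryo to embryo, with an SD of log2 CPM of 1.71, 1.97 and 1.69. Rnf7 is the RING subunit of cullin 5 ligases. It ran from 1.51 to 311 CPM in control-generated embryos (median 58.7) and from 4.67 to 218 CPM in SER-generated embryos (median 91.3), with a log2 fold change of -0.07 (SE 0.51) by edgeR and 1.02 (adjusted p = 0.0991) by voom, so the direction depended on the test. Rnf11, a partner of the A20 complex on chromosome 4 (109451098 to 109484728, minus strand), ran from 0 to 825 CPM in control-generated embryos (median 164) and from 0.779 to 373 CPM in SER-generated embryos (median 250). Its log2 fold change was -0.29 (SE 0.50) by edgeR and 0.85 (adjusted p = 0.125) by voom. In 4 control-generated embryos Rnf11 was above every SER-generated embryo, although 10 of the 15 in the SER group exceeded the control median. Rnf123, which acts in the turnover of the cell cycle inhibitor p27, had medians of 19.1 and 22.3 CPM and a log2 fold change of 0.21 (SE 0.58).

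The C2HC zinc finger ligases had 5 members, of which 4 were tested, 1 with a higher and 3 with a lower estimate. Rnf138, a ligase of DNA end resection, had the smallest unadjusted p of the 49 tested members by edgeR. It ran from 9.84 to 138 CPM in control-generated embryos (median 23.4) and from 7.39 to 35.8 CPM in SER-generated embryos (median 18.9). In 4 control-generated embryos it was above every SER-generated embryo, with control replicate 3 the highest, and 12 of the 15 in the SER group lay below the control median. The log2 fold change was -1.12 (SE 0.37, unadjusted p = 0.00409, adjusted p = 0.465 by edgeR, 0.138 by DESeq2 and 0.281 by voom), and without control replicate 3 it was -0.76. Rnf114 had medians of 377 and 362 CPM and a log2 fold change of -0.20 (SE 0.30). This estimate turned to 0.18 (SE 0.23) without control replicate 4 and was -0.52 (SE 0.26, adjusted p = 0.538 by edgeR) without SER replicate 15 and -0.15 (SE 0.17) without both. Rnf125 had medians of 144 and 208 CPM and a log2 fold change of -0.01 (SE 0.43).

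Among the RING-between-RING ligases 5 of 8 members were tested, 4 with a higher and 1 with a lower estimate. Rnf216 had an unadjusted p under 0.05. This ligase, also called Triad3, acts on Toll-like receptor signalling. It ran from 30.2 to 310 CPM in control-generated embryos (median 149) and from 53.3 to 418 CPM in SER-generated embryos (median 199), with 6 SER-generated embryos above every control-generated embryo and 4 control-generated embryos below every SER-generated embryo. The log2 fold change was 0.74 (SE 0.32, adjusted p = 0.796 by edgeR and 0.119 by voom). Rnf31, the catalytic subunit of the complex that builds linear ubiquitin chains, had medians of 60.0 and 63.5 CPM and a log2 fold change of 0.06 (SE 0.40). The transmembrane ligases with a protease-associated domain had 9 members and 3 tested, among them Rnf43, which removes Frizzled receptors from the cell surface, with medians of 12.0 and 18.5 CPM and 0.39 (SE 0.43). Another 19 members belonged to none of these groups, of which 5 were tested, 4 with a higher and 1 with a lower estimate, and none had an unadjusted p under 0.05.

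**Figure D3:**
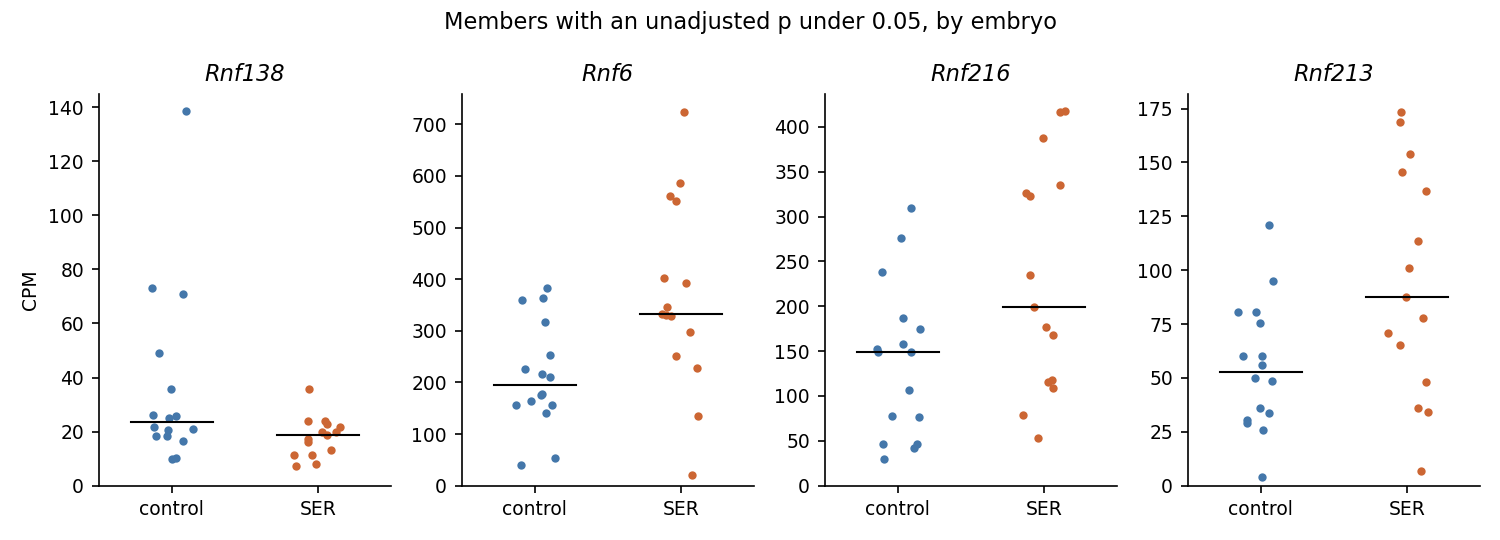
CPM per embryo (points) and group median (black bar) of the 4 members with an unadjusted p under 0.05, in 16 control- and 15 SER-generated embryos. Rnf138 is lower in SER-generated embryos with medians of 18.9 and 23.4, and Rnf6, Rnf216 and Rnf213 are higher, while the groups overlap in each panel and no adjusted p by edgeR is under 0.1.

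Genes of the same pathway outside the family were read from the same fit. All 6 ubiquitin genes and activating enzymes were tested, 1 with a higher and 5 with a lower estimate, and none had an unadjusted p under 0.05. Of 20 listed E2 enzymes 16 were tested, 7 with a higher and 9 with a lower estimate, and 1 had an unadjusted p under 0.05. This was Ube2g2, an E2 of endoplasmic reticulum-associated degradation, at 0.61 (SE 0.28, adjusted p = 0.814 by edgeR). Of 27 listed partner proteins of members 22 were tested, 16 with a higher and 6 with a lower estimate, and Kdm2b had an unadjusted p under 0.05. Rlim had medians of 232 and 307 CPM and a log2 fold change of 0.16 (SE 0.23), and Cul5, the scaffold that Rnf7 joins, had medians of 82.5 and 112 CPM and 0.37 (SE 0.20).

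Rnf34, a ligase of caspases, lies on chromosome 5 (122850048 to 122871291, plus strand) and shares 627 of its 4440 exon bases, or 14.1%, with Kdm2b on the other strand. The sources used here do not give the strand setting of the counting, so reads from the shared bases cannot be assigned with certainty. Rnf34 ran from 46.2 to 682 CPM in control-generated embryos (median 99.7) and from 38.4 to 537 CPM in SER-generated embryos (median 57.3). Most of the SER-generated embryos, 11 of 15, lay below the control median, and the highest embryos were control replicate 4 and SER replicate 15. The log2 fold change was -0.33 (SE 0.42, adjusted p = 0.967 by edgeR and 0.0993 by voom), and it was 0.18 without control replicate 4, -0.83 without SER replicate 15, -0.31 without both and -1.35 (adjusted p = 0.122 by edgeR) without the 5 deepest SER libraries. Kdm2b, a histone demethylase and Polycomb recruiter, ran from 22.6 to 196 CPM in control-generated embryos (median 41.3) and from 40.0 to 155 CPM in SER-generated embryos (median 103). For Kdm2b the log2 fold change stood at 0.74 (SE 0.28, adjusted p = 0.730 by edgeR and 0.00212 by voom), so that voom called it and edgeR did not. Across the 29 embryos without the 2 that stand apart, log2 CPM of Rnf34 and Kdm2b had r = -0.47 (permutation p = 0.0108, adjusted p = 0.0650 over 6 such relations) and rho = -0.48 (permutation p = 0.00970, adjusted p = 0.0582). Without the 2 embryos farthest from the median of Kdm2b, r was -0.58. With the 2 embryos that stand apart included, r over 31 embryos was -0.0011 (permutation p = 0.995) and rho -0.22 (permutation p = 0.237). Within 15 control-generated embryos r was -0.21 and rho -0.23 (permutation p = 0.446 and 0.409), and within 14 SER-generated embryos r was -0.57 and rho -0.38 (permutation p = 0.0308 and 0.176). Within the clusters of 21 and 8 embryos r was -0.23 and -0.37 (permutation p = 0.315 and 0.369). The sign was negative in both clusters, but so few embryos cannot decide whether the relation holds within them. Over the 29 embryos both adjusted p of the permutation tests were over 0.05 and under 0.1.

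Both embryos that stand apart by their zygotic score were also at the edge for several members, and their values are given singly because they form no group. In both of them 4 members, 8.16% of those tested, lay above the range of the other 29 embryos, beside 4.87% over all tested genes. Below that range in both were 5 members, or 10.2%, beside 13.9% over all tested genes. The shares therefore stood near the background, and the members concerned are described as single cases.

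The members above the range were Rnf24, Rnf25, Rnf34 and Rnf114. Rnf114 was at 1869 CPM in control replicate 4 and 1537 CPM in SER replicate 15, and the other 29 embryos ran from 218 to 612 CPM with a median of 362. These are 5.16 and 4.25 times that median. Rnf34 was at 682 and 537 CPM in the same embryos and between 38.4 and 251 CPM in the others. For Rnf24 the values were 373 and 881 CPM beside 43.3 to 346 CPM, and for Rnf25, which acts at stalled ribosomes, 145 and 220 CPM beside 12.2 to 112 CPM. The neighbour Pank2 shares 16.5% of the exon bases of Rnf24 on the other strand, and Spata2 shares 3.84% of those of Rnf114.

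Below the range were Rnf6, Rnf11, Rnf19a, Rnf125 and Rnf149. Rnf11 had no count in control replicate 4 and 2 counts in SER replicate 15 (0.779 CPM), where the other embryos ran from 52.2 to 825 CPM with a median of 210. Rnf125 was at 13.6 CPM in control replicate 4 and had no count in SER replicate 15, and the others lay between 39.1 and 463 CPM. Rnf149, a transmembrane ligase with a protease-associated domain, had no count in either embryo, beside 2.51 to 66.3 CPM. Rnf6 was at 40.7 and 19.9 CPM beside 52.7 to 724 CPM, and Rnf19a at 30.2 and 10.5 CPM beside 33.2 to 161 CPM.

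**Figure D4:**
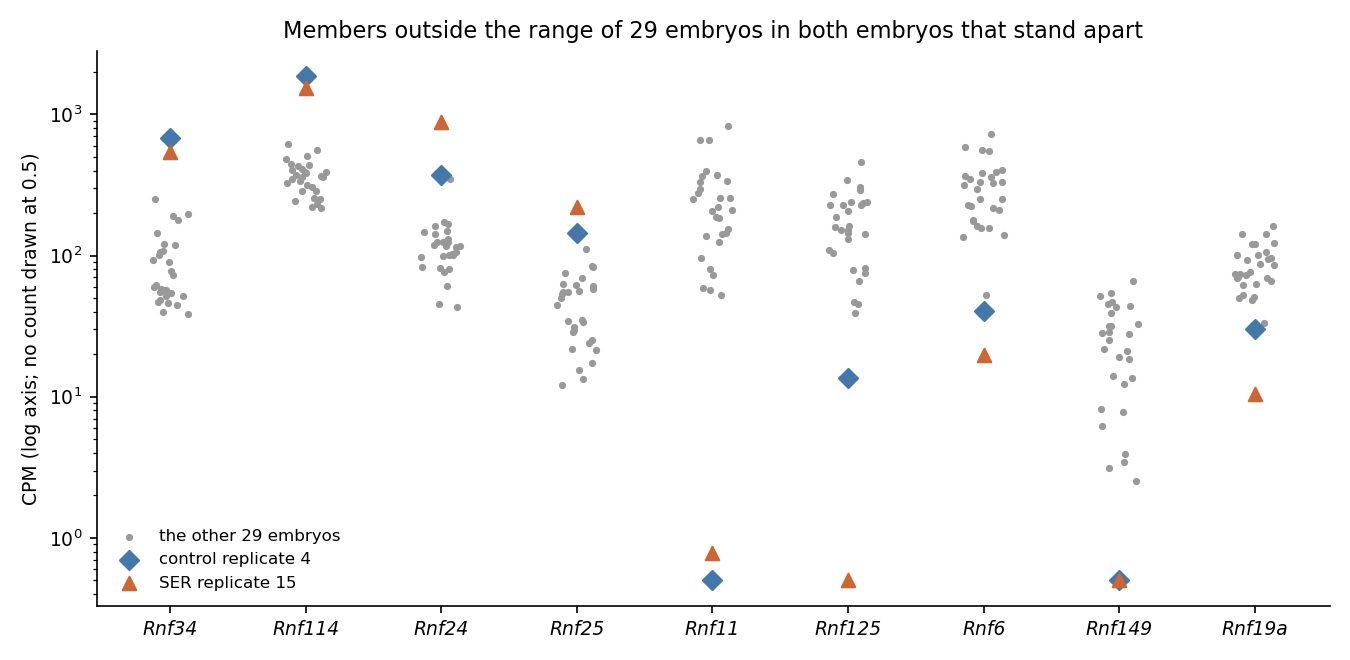
CPM (log axis) of the 9 members that lay outside the range of 29 embryos (grey points) in both control replicate 4 (blue diamond) and SER replicate 15 (orange triangle), with embryos without a count drawn at 0.5. Rnf34, Rnf114, Rnf24 and Rnf25 lie above the grey points in both embryos, and Rnf11, Rnf125, Rnf6, Rnf149 and Rnf19a below them.

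Promoters are shown for 4 of these members, 2 that lay above and 2 that lay below the range, because they lay on opposite sides of it in the same embryos. Each window runs from 250 bases before to 50 bases after the start of the gene in RefSeq (GRCm38.p6), written 5′ to 3′ on the strand of the gene. Capitals mark matches on either strand to 5 motifs. The GC box was searched with the letters GGGCGG, the usual site of Sp1 factors. For ETS factors the core searched was CCGGAAG on both strands. The CCAAT box is named by its letters, as is the motif CACGTG of the E-box. The TATA box was searched as TATAAA in the same windows. Rnf114 lies at chr2:167503193-167503492 on the plus strand, Rnf34 at chr5:122849938-122850237 on the plus strand, Rnf6 at chr5:146221408-146221707 on the minus strand and Rnf149 at chr1:39577298-39577597 on the minus strand.
Rnf114: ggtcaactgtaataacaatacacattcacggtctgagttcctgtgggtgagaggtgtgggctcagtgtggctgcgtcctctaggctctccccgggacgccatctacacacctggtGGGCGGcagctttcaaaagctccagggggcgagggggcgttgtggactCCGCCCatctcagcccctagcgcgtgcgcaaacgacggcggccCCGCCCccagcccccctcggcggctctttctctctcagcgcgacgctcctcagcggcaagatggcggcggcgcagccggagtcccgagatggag
Rnf34: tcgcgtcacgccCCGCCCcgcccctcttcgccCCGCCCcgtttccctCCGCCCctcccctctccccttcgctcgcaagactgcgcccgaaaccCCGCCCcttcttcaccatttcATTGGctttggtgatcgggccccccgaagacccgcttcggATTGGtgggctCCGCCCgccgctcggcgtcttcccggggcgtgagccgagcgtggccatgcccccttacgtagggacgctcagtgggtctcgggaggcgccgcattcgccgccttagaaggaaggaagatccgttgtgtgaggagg
Rnf6: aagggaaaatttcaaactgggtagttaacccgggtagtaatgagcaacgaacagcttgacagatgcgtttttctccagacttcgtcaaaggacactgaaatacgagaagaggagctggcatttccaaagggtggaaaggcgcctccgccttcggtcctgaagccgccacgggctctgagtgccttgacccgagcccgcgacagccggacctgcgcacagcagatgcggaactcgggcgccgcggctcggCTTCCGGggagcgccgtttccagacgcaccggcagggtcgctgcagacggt
Rnf149: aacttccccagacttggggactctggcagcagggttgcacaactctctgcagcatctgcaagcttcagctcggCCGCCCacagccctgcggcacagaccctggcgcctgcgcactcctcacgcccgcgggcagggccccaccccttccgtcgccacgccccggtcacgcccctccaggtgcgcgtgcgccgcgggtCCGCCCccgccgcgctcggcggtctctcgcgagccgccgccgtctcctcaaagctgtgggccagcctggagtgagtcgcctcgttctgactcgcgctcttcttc
Rnf114 and Rnf149 held GC boxes, Rnf34 held GC and CCAAT boxes, and Rnf6 held an ETS core and none of the other motifs. None of the 4 windows held the TATA box or the E-box.

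Over the 63 members with a promoter in the table, 39 held a GC box, which is 61.9% beside 35.9% of all 27025 promoters of the same length. An ETS core was found in 14.3% of the members and 9.12% of all promoters. The CCAAT box was found in 34.9% and 37.9%, the TATA box in 12.7% and 14.2%, and the E-box in 4.76% and 7.24%. The median share of G and C was 60% in the members and 52.7% in all promoters, with a median of 21 and 7 CG dinucleotides. Base composition therefore differed beside the GC box, and its part in the count was not tested.

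The relation of each tested gene to the zygotic score was examined over the 29 embryos other than the 2 that stand apart, 15 control- and 14 SER-generated. A gene counted as related when the permutation tests of both Pearson's r and Spearman's rho had an adjusted p under 0.05 over all 8571 tested genes. Higher with the score were 2 members, 4.08% of those tested beside 2.7% over all tested genes, and lower were 0 members beside 2.0%. The median r of the members was -0.10 and that of all tested genes -0.04. Rnf6 had r = 0.56 (permutation p = 0.00162, adjusted p = 0.0399) and rho = 0.59 (adjusted p = 0.0287), and r = 0.51 without the 2 embryos farthest from the median score, which were SER replicate 8 and control replicate 5. For Rnf11, r was 0.57 (permutation p = 0.00118, adjusted p = 0.0347) and rho 0.54 (adjusted p = 0.0425), and without the same embryos r was 0.41. In control-generated embryos alone r was 0.49 for Rnf6 and 0.73 for Rnf11, and in SER-generated embryos 0.44 and 0.53. Within the largest cluster of 21 embryos r was 0.42 for Rnf6 and 0.29 for Rnf11, and within the second cluster of 8 embryos it was 0.83 and 0.73.

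At the other end, Rnf5 had r = -0.55 (permutation p = 0.00202, adjusted p = 0.0429) with rho = -0.50 (adjusted p = 0.0560), and so passed by one measure and not by the other. Rnf187 and Rnf167, an endosomal ligase named after its values were seen, passed by rho alone. Rnf187 had rho = -0.59 (adjusted p = 0.0257 by the permutation test) with r = -0.40 (adjusted p = 0.151), and Rnf167 rho = 0.57 (adjusted p = 0.0325 by the permutation test) with r = 0.41 (adjusted p = 0.153). Rnf185 had r = -0.50, Rnf146 -0.50 and Rnf220 -0.47, with adjusted p of 0.0643, 0.0711 and 0.0949 by the permutation test. Rnf216 had r = 0.52 and Rnf113a2 0.46, with adjusted p of 0.0580 and 0.102. The score itself rose with the log2 of the library total (r = 0.51, permutation p = 0.00405, rho = 0.57, permutation p = 0.00134, r = 0.59 without the 2 embryos farthest from the median total), and log2 CPM of Rnf6 and Rnf11 had r = 0.34 and 0.41 with that total. The part of depth in these relations was not tested. With other ways of computing the score the related members numbered from 0 to 6, beside 0.723% to 13.6% of all tested genes. With a prior count of 0.5 there were 0, beside 2.03% of all tested genes. After removing the group means neither Rnf6 nor Rnf11 passed and 1 other member did, beside 2.46%. This was Rnf17, a germ cell Tudor protein named after its values were seen. Before that step it had r = 0.44 (adjusted p = 0.116 by the permutation test).

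**Figure D5:**
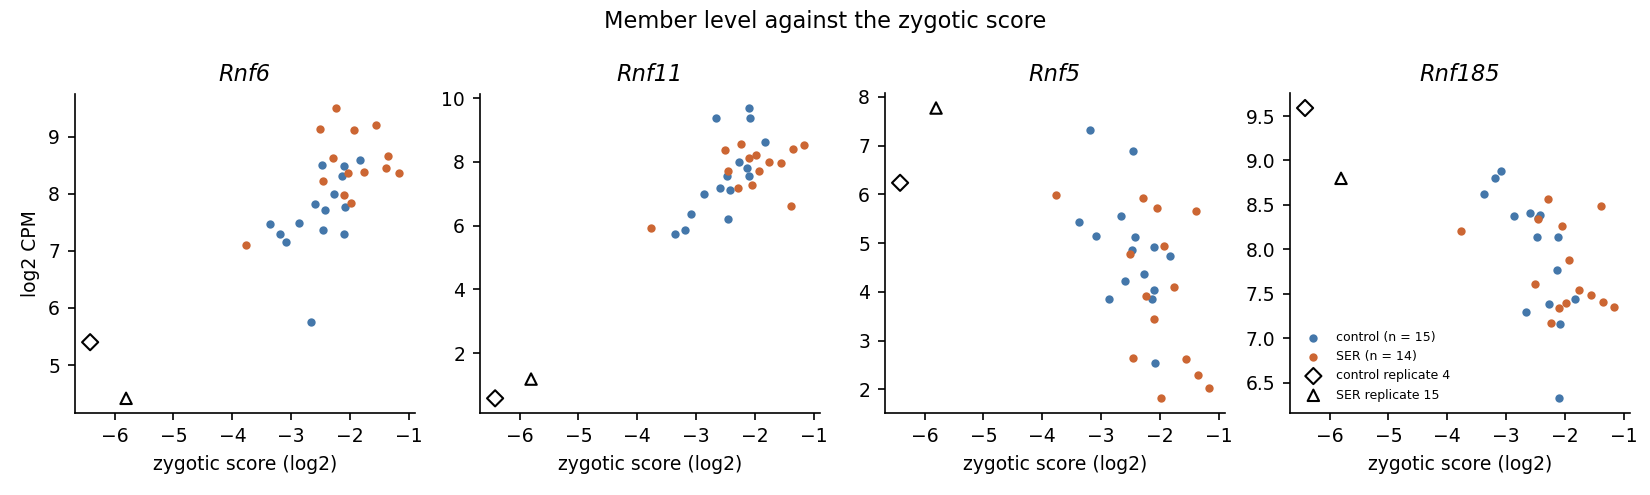
Log2 CPM against the zygotic score (mean log2 CPM of zygotic minus oocyte transcripts) for Rnf6, Rnf11, Rnf5 and Rnf185, with 15 control-generated (blue) and 14 SER-generated (orange) embryos and, as open symbols, control replicate 4 and SER replicate 15, which were left out of the correlations. Rnf6 and Rnf11 rise with the score and Rnf5 and Rnf185 have lower values at higher scores, with r of 0.56, 0.57, -0.55 and -0.50.

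Among the 33 members that were not tested, 31 had a count and could be read from a fit of the 17803 genes with any count. None had an adjusted p under 0.1 in that fit of edgeR, the smallest being 0.116, while 504 of the 17803 genes had one. An unadjusted p under 0.05 was found for 5 of the 31, beside 10.7% over all genes of the fit. They are Rnf144b, Rnf151, Rnf183, Rnf217 and Rnf223, named after their values were seen. Rnf151, known from spermatids, had a count in 1 control- and 7 SER-generated embryos with 36 counts in all, Rnf183 had 9 counts in 2 SER-generated embryos, and Rnf217 had 16 counts in 4 control- and 1 SER-generated embryo. The adjusted p by edgeR in that fit was 0.163 for Rnf151, 0.128 for Rnf183 and 0.116 for Rnf217. Whether differences between the groups could be detected at such counts was not tested.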

How the data were processed

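RNA of single 2-cell embryos was sequenced by Smart-seq3. The authors aligned 5′ and internal reads separately with STAR, took out duplicates (UMI-tools for 5′, Picard for internal reads), merged both and deposited raw featureCounts counts per gene symbol. The submitters' notes name mm10. Annotation, strand setting and tool versions are not given in the sources used here. The study worked with independent batches of embryos and corrected for them before calling genes with DESeq2. It reports protein ubiquitination as enriched among its genes higher in SER-generated embryos. The labels do not say which embryo belonged to which batch, so no batch term or ComBat-seq was applied. Any spread between batches remained in the fits given here, and its part in the lack of calls was not tested. The members, role groups and lists were chosen with earlier results of these data known.

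Groups were compared on the deposited counts with edgeR 4.0.16 (R 4.3.3), TMM normalization and filterByExpr (minimum count 10, minimum total 15), with no covariates, over 16 control- and 15 SER-generated embryos. An adjusted p under 0.1 was the threshold, after the methods of the study. The study's methods split the caudae epididymides between the treatments, but the labels do not say which embryos shared parents. The p-values therefore treat each embryo as independent and weigh a difference against the spread between these embryos. Log2 CPM used a prior count of 2. Correlations with the zygotic score used 100000 permutations, 2-sided. The score relation was planned over all embryos and is given over 29, because 2 form a cluster of their own. Depth was 532945 to 3088396 counts per embryo, which limits low members. Since internal reads lack identifiers, intervals from the counts of a single library would be too narrow and none is given. Each SE is instead the absolute log2 fold change divided by the square root of the edgeR F statistic. It thus rests on the spread between embryos. Exon lengths, positions and translated proteins came from GENCODE vM21 (GRCm38), which holds all 82 members, and promoters from RefSeq, of which 63 members outside 1 chromosome that is not reported here as sequence were matched.

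Named members, 24 in all, are the 6 highest per kb, the 6 with the smallest p, the 4 highest and the 4 lowest in r with the score, the 4 with the widest spread, Rnf34, and Rnf114, Rnf4, Rnf20, Rnf40, Rnf31, Rnf43, Rnf111, Rnf146 and Rnf7 for their roles. Members of pairs, members outside the range of 29 embryos and untested members are named beside them. Alternatives were other scalings, filters, DESeq2 1.42.0, limma 3.58.1 voom, robust dispersion, covariates, 3 k-means clusters, a replicate block, and leaving out each embryo. Scripts were tested on simulated data.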

Additional observations from a re-analysis of the deposited data

How the results depend on the processing

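No member was called by edgeR at an adjusted p under 0.1. The count was also 0 at an adjusted p under 0.05, with DESeq2's size factors, with singleton pairing and with a stricter filter. It was 0 as well with each covariate, with the block and in every fit that left out 1 embryo. In all of these fits 0 of all tested genes passed. Without a filter 0 members passed beside 504 of 17803 genes, and with the 3 estimated clusters 0 beside 41 of 8571. DESeq2 gave 0 members beside 49 genes, and voom with sample quality weights gave 6 beside 848 genes. Members at an unadjusted p under 0.05 numbered 4 of 49, beside 5.73% over all tested genes. Without a filter there were 9 of 80, beside 10.7% over all genes of that fit. With the 3 estimated clusters as a term there were 7, beside 11.002%. By voom there were 12, beside 23.1%, and without the 5 deepest SER libraries 9, beside 14.5%. Leaving out each embryo gave 3 to 6, and the 6 were found without SER replicate 15, beside 9.24%. These higher counts thus came with higher shares over all genes. With the zygotic score as a covariate there were 4 again, beside 9.14% over all tested genes, but Rnf11 and Rnf24 stood in place of Rnf6 and Rnf213. With the library total there were 3, without Rnf213, beside 5.74%. With the replicate number as a block there was 1, Rnf138, beside 4 for the same 15 pairs without the block, and 310 genes in all. Same-numbered embryos had r from -0.366 to 0.494, with a median of 0.109 beside -0.0036 for embryos of different numbers. Of the 15 pairs 8 were over 0.1, and 2 of 15 SER-generated embryos matched their own number best. These values do not settle whether the numbers pair the embryos, and the main fit did not pair them. The median log2 fold change ran from 0.09 to 0.19 when each embryo was left out. Members related to the zygotic score numbered 2, beside 4.69% of all tested genes. With the zygotic list alone there were 0 beside 0.723%, and with the maternal list alone 6 beside 13.6%. There were 0 with a prior count of 0.5, beside 2.03%, and 1 with the group means removed, beside 2.46%. The number of members thus went with the share over all genes. Leaving out the 5 deepest SER libraries and leaving out both embryos that stand apart were chosen after seeing the data.

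Of the 24 members named by rule, 10 kept the direction of their log2 fold change in every fit run. The direction turned for the others as follows, and the cause was not tested. With the zygotic score as a covariate it was 0.12 for Rnf114, 0.024 for Rnf187, 0.093 for Rnf34 and -0.0061 for Rnf31. With the library total as a covariate it was 0.10 for Rnf187, -0.047 for Rnf4, -0.048 for Rnf126, 0.050 for Rnf20 and -0.078 for Rnf31. With the replicate block it was 0.014 for Rnf187, 0.061 for Rnf125, 0.072 for Rnf11, 0.25 for Rnf7 and 0.032 for Rnf20. Without a filter it was 0.023 for Rnf125 and 0.0092 for Rnf20. By voom it was 0.52 for Rnf125, -0.25 for Rnf126, 0.85 for Rnf11, 1.02 for Rnf7, -0.79 for Rnf123 and 0.064 for Rnf20. Without the 5 deepest SER libraries it was 0.32 for Rnf125, -0.41 for Rnf126, -0.16 for Rnf24, 0.25 for Rnf7, 0.16 for Rnf20 and -0.069 for Rnf31. Without both embryos that stand apart it was 0.0054 for Rnf125. By DESeq2 it was -0.0077 for Rnf24. Over the 15 pairs without the replicate block it was 0.085 for Rnf5, 0.0094 for Rnf20 and -0.027 for Rnf31. With the 3 clusters it was 0.16 for Rnf7. With the stricter filter it was 0.00086 for Rnf20. When 1 embryo was left out at a time, the log2 fold change ran from -0.52 to 0.18 for Rnf114, from -0.097 to 0.18 for Rnf125, from -0.027 to 0.40 for Rnf113a2, from -0.89 to 0.085 for Rnf5, from -0.25 to 0.22 for Rnf7, from -0.11 to 0.38 for Rnf123, from -0.83 to 0.18 for Rnf34, from -0.062 to 0.057 for Rnf20 and from -0.10 to 0.35 for Rnf31.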
